A study of Rattus norvegicus with 2 samples.

Results

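Circular RNAs (circRNAs) are made when the end of an exon is spliced back to the start of the same or an earlier exon, and reads across that back-splice junction mark the circle. The circRNAs described here come from host genes whose names belong to cilia, centrosome and microtubule families. They were chosen by name alone, as every row of the circRNA table whose host list holds a name of the families Cep, Ift, Bbs, Dnah, Dnai, Dync, Kif, Cfap, Spag, Spef, Tub, Ttll, Nek, Ccdc, Ttc, Clasp, Clip, Ckap or Wdr, or the gene Pcm1, Cdk5rap2, Pcnt, Akap9 or Hydin. The rule found 118 circRNAs of 4734 in the table, from 78 host genes of 2516. Junction values were summed per host gene in each library.

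RNA was taken from lung tissue of Sham rats, which received PBS, and of LPS rats, which received lipopolysaccharide at 2 mg/kg, both by intratracheal spray. SD rats of about 300 g were used, 12 in all, and lungs were taken after 24 h. Age and sex of the rats were not given, and neither was how many rats went into a library. Each group had 1 library, so no difference below has a replicate check and no p-value is given.

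Microtubules are hollow tubes of tubulin along which kinesin and dynein motors carry cargo. Centrosomes nucleate and anchor them, and the centriole of a centrosome can become the base of a cilium, whose core is a microtubule axoneme. In the lung, motile cilia of airway epithelial cells clear mucus, and many other cell types carry a single primary cilium that is built by intraflagellar transport (IFT) and sorted by the BBSome. Host genes are described below by these roles. Names beginning with Ccdc, Ttc and Wdr refer to a sequence motif (coiled coil, tetratricopeptide repeat or WD repeat) rather than to a place in the cell, and many of their products work away from microtubules.

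The deposited values are junction reads scaled to the library total (CPM, counts scaled so that the libraries sum to 1000001 and 1000002). The Sham library held 38112 junction reads and the LPS library 52505, so 1 read is worth 26.2 CPM and 19.0 CPM. The lowest listed value is 2 reads, and everything below it carries a fill-in of 0.001, which stands for 0 or 1 read. The fill-in allows up to 4.74 reads at 1 junction, or 124 CPM in Sham and 90.4 CPM in LPS. For a junction or host listed in 1 library only, its level is set against this limit in the other library. Such a fold leaves out the counting error of the listed level, so it is not a lower bound. A difference of at least 2-fold on the log2 scale, with 0.5 reads added to each value, is used as the mark of a change in size, and it is not a test. On a scale that sets the median ratio of the 1757 circRNAs listed in both libraries to 1, every log2 value given here is 0.46 higher. That median, -0.46, is the value that equal read numbers give. This scale therefore in effect compares read numbers without correction for depth. All intervals are at 95%. They hold counting error and nothing else, because amplified reads that carry no molecular identifier can be copies of each other. Junction reads have no length term. Wilson intervals are used for a level and exact binomial intervals for a ratio. In bulk tissue, fewer cells of a type and less RNA per cell cannot be told apart.

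The 118 circRNAs together held 933 Sham reads and 1505 LPS reads. This was 2.45% of the Sham library (2.30 to 2.61) and 2.87% of the LPS library (2.73 to 3.01), a ratio of LPS to Sham of 1.17 (1.08 to 1.27). The increase was carried by the motif-named families. Ccdc, Ttc and Wdr hosts held 1.33% of Sham reads (1.22 to 1.45) and 1.89% of LPS reads (1.77 to 2.01), 1.42 times as much in LPS (1.28 to 1.59). The other families, most of which are named for cilia, centrosomes or microtubules, held 1.12% (1.02 to 1.23) and 0.979% (0.898 to 1.07), a ratio of 0.874 (0.767 to 0.996). This split is by name only. Spag9 is counted with the other families, and Ccdc104, Wdr78 and Ccdc173, ciliary under their current symbols, with the motif-named ones. On the median ratio scale the log2 value of the motif-named families was 0.97 and that of the others 0.27 in place of -0.20. The direction of the other families thus depends on the scale. The motif-named families stood higher on either, which had to follow, because this scale only raises each log2 value. Of all member reads, 61.4% belonged to the motif-named families.

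**Figure D1:**
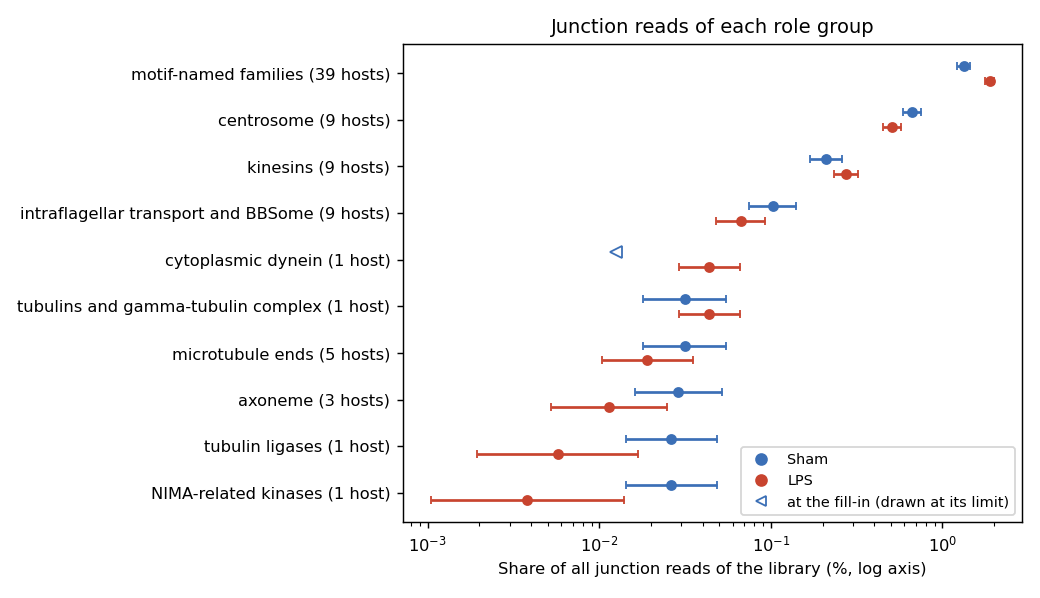
Share of all junction reads of each library held by each role group, on a log axis, with 95% Wilson intervals; an open triangle marks a group at the fill-in, drawn at the limit it allows. Motif-named families stand apart, at 1.33% in Sham and 1.89% in LPS with intervals that do not meet, and the axoneme group lies near the other end with 11 and 6 reads, of which 8 and 4 are from Spag9.

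The 11 genes taken here as markers of ciliated airway cells had no circRNA listed in either library. They were Foxj1, Dnah5, Dnah9, Hydin, Spag17, Cfap43, Cfap44, Rsph1, Tekt1, Ccdc39 and Ccdc40. Other ciliary genes did have circRNAs, as given below. Rsph4a, a related gene outside the name rule, was at the Sham fill-in with 2 LPS reads. No Dnah or Spef junction of any kind was listed. The axoneme group was down to 3 hosts. Dnai1, an intermediate chain of outer arm dynein, was listed in Sham with 3 reads and not in LPS. Cfap61, a radial spoke protein, was at the Sham fill-in and had 2 LPS reads. Spag9 had 8 Sham and 4 LPS reads, but its product is a scaffold of JNK signalling and motor transport and not part of the axoneme. Under current RefSeq symbols (GRCr8), 3 hosts with motif names are axonemal or ciliary by name. Ccdc104 is now Cfap36, Wdr78 is Dnai4 and Ccdc173 is Cfap210. Wdr78 had 11 Sham and 6 LPS reads, 288.6 and 114 CPM, and Ccdc173 was listed in Sham with 2 reads and not in LPS. In all, 77 of 78 host names matched a current symbol on the same chromosome, 5 of them under a new name. The other 2 renamed hosts were Ccdc132, now Vps50 of the endosomal recycling machinery, and Ccdc101, now Sgf29 of the SAGA histone acetylation complex.

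Of the IFT and BBSome hosts, 9 were listed with 12 junctions, 39 Sham reads and 35 LPS reads. The sum was 1023 CPM in Sham and 667 CPM in LPS, a ratio of 0.651 (0.401 to 1.06), so the difference lay within counting error. Ift88, a core subunit of the IFT-B train, had the most reads, 11 in Sham and 13 in LPS (289 and 248 CPM), from chromosome 15 between 37706285 and 37710041. Bbs4, a BBSome subunit, had 8 and 2 reads (chromosome 8, 64141721 to 64145423). Its values were 210 CPM (106 to 414) and 38.1 CPM (10.4 to 139), a ratio of 0.181 (0.0188 to 0.909). Ift74, which forms the IFT-B core with Ift81, had 4 and 6 reads over 2 junctions. The others (Bbs5, Bbs9, Ift172, Ift20, Ift80 and Ift81) had at most 5 reads in either library.

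Centrosome hosts were dominated by Cep112, a coiled-coil protein of the centrosome. Its junction on chromosome 10 between 96672236 and 96679543 had the most reads of all 118 circRNAs and rank 19 among the 4734. Its 213 reads in Sham and 249 in LPS came to 5589 CPM (4889 to 6389) and 4742 CPM (4190 to 5367), a ratio of 0.849 (0.704 to 1.02). The libraries therefore did not differ there beyond counting error. Apart from this junction, the group's 13 others had 40 Sham reads and 19 LPS reads, a ratio of 0.345 (0.189 to 0.609), and on the median ratio scale they were lower as well. Of these reads, 12 in Sham and none listed in LPS were from other Cep112 junctions. The junction left out was picked by these same reads, and values at the fill-in were counted as no reads, so this ratio is only a description. Of the 14 centrosome junctions, 9 were at least 2-fold lower (43.3% of all circRNAs were), 3 higher (35.7% of all) and 2 neither, and 8 were listed in Sham only (32.4% of all). Apart from the main Cep112 junction, none of the 14 had more than 7 reads in either library. Shares over all circRNAs with so few reads were not computed, so the counts say nothing about this group in particular. Cep85l had 6 Sham and 9 LPS reads over 2 junctions. Cep290 of the ciliary transition zone had 3 Sham reads, Cep89 of the centriole's distal appendages 4, Cep63 2 and Pcnt, the pericentriolar scaffold, 2, and each of these was at the LPS fill-in. Akap9, a scaffold of centrosome and Golgi, was at the Sham fill-in with 5 LPS reads. Including Cep112, the group had 253 and 268 reads, 6638 and 5104 CPM, with a log2 value of -0.38 that went to 0.083 on the median ratio scale.

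Motor junctions went both ways. Of the 14 kinesin junctions, 6 were at least 2-fold higher (35.7% of all circRNAs were), 5 lower (43.3% of all) and 3 neither. A few single motor junctions had more reads in LPS than the Sham fill-in can hide. Dync1h1, the heavy chain of cytoplasmic dynein, was at the Sham fill-in and had 23 LPS reads, 438 CPM (292 to 657), from chromosome 6 between 134984901 and 134985481. This level is 3.52-fold the limit of the Sham fill-in, and its interval lies above that limit. Kif26b, an unconventional kinesin, was at the Sham fill-in with 12 LPS reads, 1.84-fold the Sham limit (chromosome 13, 97022518 to 97023051). Its LPS interval, 130.7 to 399.5 CPM, begins close to that limit of 124.5 CPM. Kif5b, the heavy chain of conventional kinesin, had 3 junctions on chromosome 17, and 2 of them share the start at 54209230. The one ending at 54209739 had 10 Sham and 12 LPS reads. The one ending at 54209458, of only 228 nt, was at the Sham fill-in with 15 LPS reads, 2.29-fold the Sham limit. The remaining Kif5b junction, 54205442 to 54206173, had 3 Sham reads and none listed in LPS. Summed over its junctions, Kif5b had a ratio of 1.51 (0.752 to 3.18).

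Kif1b, a kinesin that carries mitochondria and vesicle precursors, was the kinesin with the most reads. Its main junction on chromosome 5 between 166066342 and 166067876 had 48 reads in Sham and 81 in LPS, or 1259 CPM (950 to 1669) and 1543 CPM (1242 to 1917), a ratio of 1.22 (0.847 to 1.79). The neighbouring junction with the same end was at the Sham fill-in with 6 LPS reads, and one at 165972829 to 165977097 had 7 and 2 reads. Kif13b had 8 Sham and 9 LPS reads, and Kif13a and Kif16b had 2 Sham reads each and none listed in LPS. The 9 kinesins together had 80 and 144 reads, 2099 and 2743 CPM, a ratio of 1.31 (0.987 to 1.74).

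Among proteins that nucleate, cap or modify microtubules, Tubgcp4, a subunit of the gamma-tubulin ring complex, had 12 Sham and 23 LPS reads. Its junction, on chromosome 3 between 113149412 and 113149914, was at 315 CPM (180 to 550) and 438 CPM (292 to 657), intervals that overlap. No tubulin gene itself was listed. Several hosts had few LPS reads. Nek4, a NIMA-related kinase, had 10 Sham reads and 2 LPS reads over 2 junctions, a ratio of 0.145 (0.0155 to 0.681). Ttll5, which adds glutamate chains to tubulin, had 10 and 3, a ratio of 0.218 (0.0385 to 0.846). Clip2, which tracks growing microtubule ends, had 9 reads over 2 junctions in Sham, 1.97-fold the LPS limit, and was not listed in LPS. Its Sham interval, 124.2 to 448.8 CPM, begins close to that limit of 119.9 CPM. Clasp1, which stabilises microtubule ends, had 3 Sham and 4 LPS reads, and Ckap5, a microtubule polymerase, was at the Sham fill-in with 2 LPS reads.

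The motif-named hosts included the clearest differences. All 3 families held a larger share of LPS reads than of Sham reads. Ttc hosts had 327 Sham and 591 LPS reads, a ratio of 1.31 (1.14 to 1.51), Ccdc hosts 140 and 297, a ratio of 1.54 (1.25 to 1.90), and Wdr hosts 39 and 103, a ratio of 1.92 (1.31 to 2.85). Without Ttc7a the log2 ratio of the 3 families together was 0.42 against 0.51, so this pooled ratio did not rest on that gene alone. Ttc7a held 116 of the Sham and 272 of the LPS reads of Ttc hosts. The ratio of each single family was not computed without its largest contributors, so whether each is higher across its hosts was not tested.

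Ttc7a anchors a phosphatidylinositol 4-kinase at the plasma membrane. Its main junction on chromosome 6 between 10920914 and 10923681 had 113 Sham and 272 LPS reads, which is 2965 CPM (2467 to 3563) and 5180 CPM (4602 to 5832). The ratio was 1.75 (1.40 to 2.20), short of 2-fold on the library total. On the median ratio scale its log2 value was 1.26, past 2-fold. Ccdc50, a ubiquitin-binding protein, had 9 Sham and 51 LPS reads from chromosome 11 between 76771291 and 76783665. At 236 CPM (124 to 449) and 971 CPM (739 to 1277) it was 4.11 times as high in LPS (2.01 to 9.50), the largest ratio of any member junction with at least 10 reads that was listed in both libraries.

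Wdr33, which recognises the polyadenylation signal of pre-mRNA, was listed in LPS only. Its junctions on chromosome 18 had 22 reads (24611733 to 24614740) and 8 reads (24662368 to 24665851), together 571 CPM and 3.46-fold the Sham limit for 2 junctions. Ccdc104, whose product binds the small GTPase Arl3, had 29 LPS reads and none listed in Sham (chromosome 14, 113626321 to 113631487), 4.44-fold the Sham limit. Ccdc171 had 3 Sham and 27 LPS reads over 3 junctions, a ratio of 6.53 (2.01 to 33.6). Of these, 17 LPS reads came from the junction at 101653101 to 101663967 on chromosome 5, which was at the Sham fill-in. Wdr7, a partner of the vacuolar proton pump, had 7 and 19 reads, a ratio of 1.97 whose interval held 1 (0.793 to 5.55).

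For 4 further motif-named hosts, the interval of the ratio held 1. Wdr45b, an autophagy protein, had 13 and 29 reads, 341 and 552 CPM, a ratio of 1.62 (0.816 to 3.39). Ccdc61, which takes part in the assembly of basal bodies, had 31 and 49 reads, 813 and 933 CPM. Ttc33 had 3 and 8 reads, a ratio of 1.94 (0.465 to 11.3). Ttc28 had 19 and 13 reads, 498 and 248 CPM, a ratio of 0.497 (0.225 to 1.06).

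**Figure D2:**
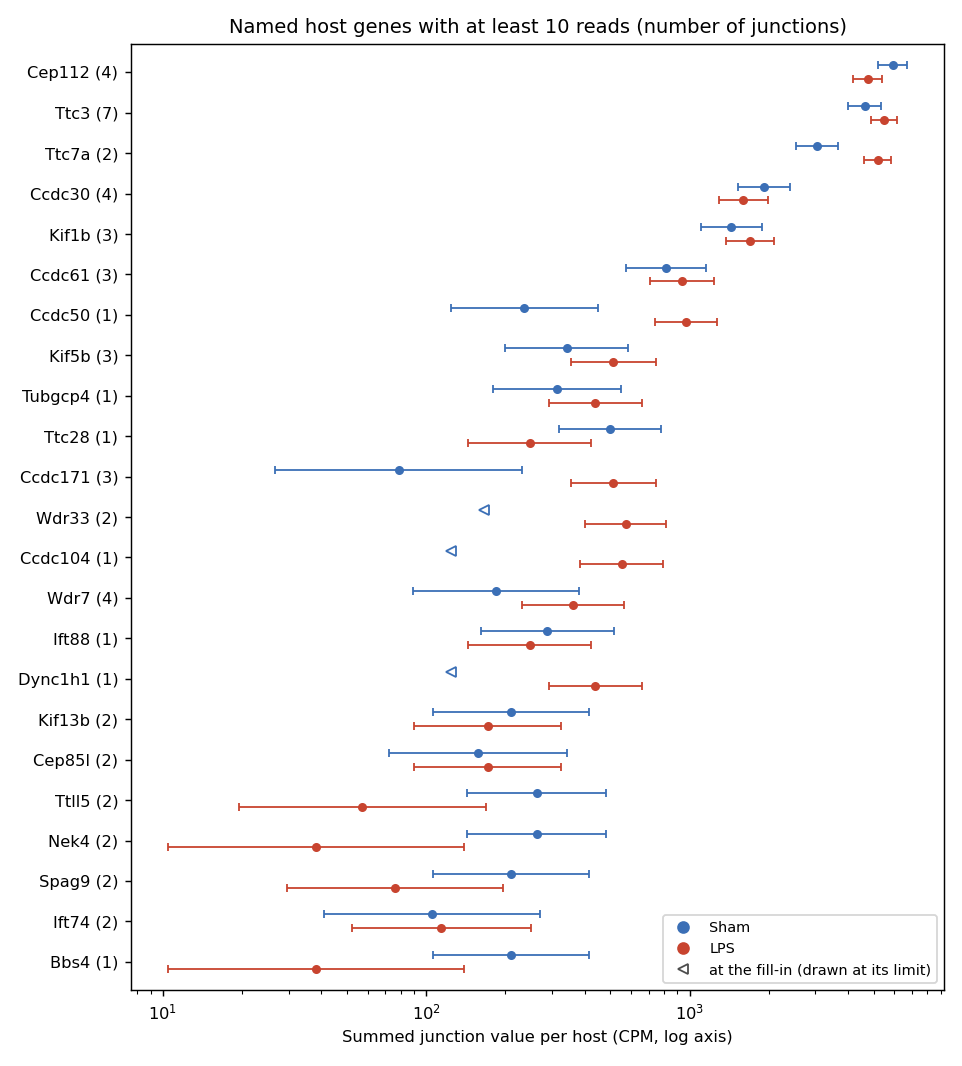
Summed junction value of each named host gene with at least 10 reads over both libraries, in CPM on a log axis, with 95% Wilson intervals and the number of junctions in parentheses; open triangles mark a library at the fill-in, drawn at the limit for that number of junctions. Sham and LPS lie close together for Cep112, Ttc3, Ccdc30 and Kif1b, and well apart for Ccdc50 (236 and 971 CPM), Ccdc171 (78.7 and 514 CPM), Wdr33, Ccdc104 and Dync1h1.

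In Ttc3, Cep112 and Ccdc30, the junction with the most reads was within 2-fold between the libraries, while most of the weaker ones, which have few reads, were not. Ttc3, a ubiquitin ligase with tetratricopeptide repeats, had 7 junctions on chromosome 11. The main one, 34612627 to 34614139, had 118 reads in Sham and 191 in LPS, or 3096 CPM (2586 to 3706) and 3638 CPM (3158 to 4190). A longer circle to the same end, from 34611539, had 40 and 63 reads, 1050 and 1200 CPM. Their ratios were 1.17 (0.929 to 1.49) and 1.14 (0.757 to 1.74). In contrast, the junction that shares the main start but runs on to 34631134 had 15 Sham and 2 LPS reads, a ratio of 0.0968 (0.0107 to 0.416), and that from 34618863 to the same far end had 3 Sham reads and none listed in LPS. Both junctions ending at 34616155 were seen in LPS only, with 7 and 2 reads. A separate junction further along the gene, 34726016 to 34727930, was at the Sham fill-in with 22 LPS reads, 3.37-fold the Sham limit. Summed over its junctions, Ttc3 had 176 and 287 reads, a ratio of 1.18 (0.978 to 1.44), although single junctions went both ways.

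Ccdc30 and Cep112 had lower minor junctions in LPS beside an even main one. The main Ccdc30 junction on chromosome 5, 138433397 to 138436136, had 54 and 82 reads, 1417 and 1562 CPM. The longer circle from the same start to 138449955 had 8 and 2 reads, and 138445481 to 138449955 had 7 Sham reads and none listed in LPS. Together with the junction 138389191 to 138400990, the minor ones had 19 Sham and 2 LPS reads. The 3 minor Cep112 junctions, spanning 22473 to 60256 nt, had 4 Sham reads each and none listed in LPS. Each was at 105 CPM in Sham, with an interval (40.8 to 269.9) that holds the 90.4 CPM the LPS fill-in allows, so a difference beyond counting error was not detectable at any of them alone.

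Wdr7, with 4 junctions on chromosome 18, had both directions. Its junctions ending at 59209831 were 59192337 to 59209831 with 7 Sham reads and none listed in LPS, 59207484 to 59209831 with 14 LPS reads and none listed in Sham, and a long one from 59190041 with 2 LPS reads.

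**Figure D3:**
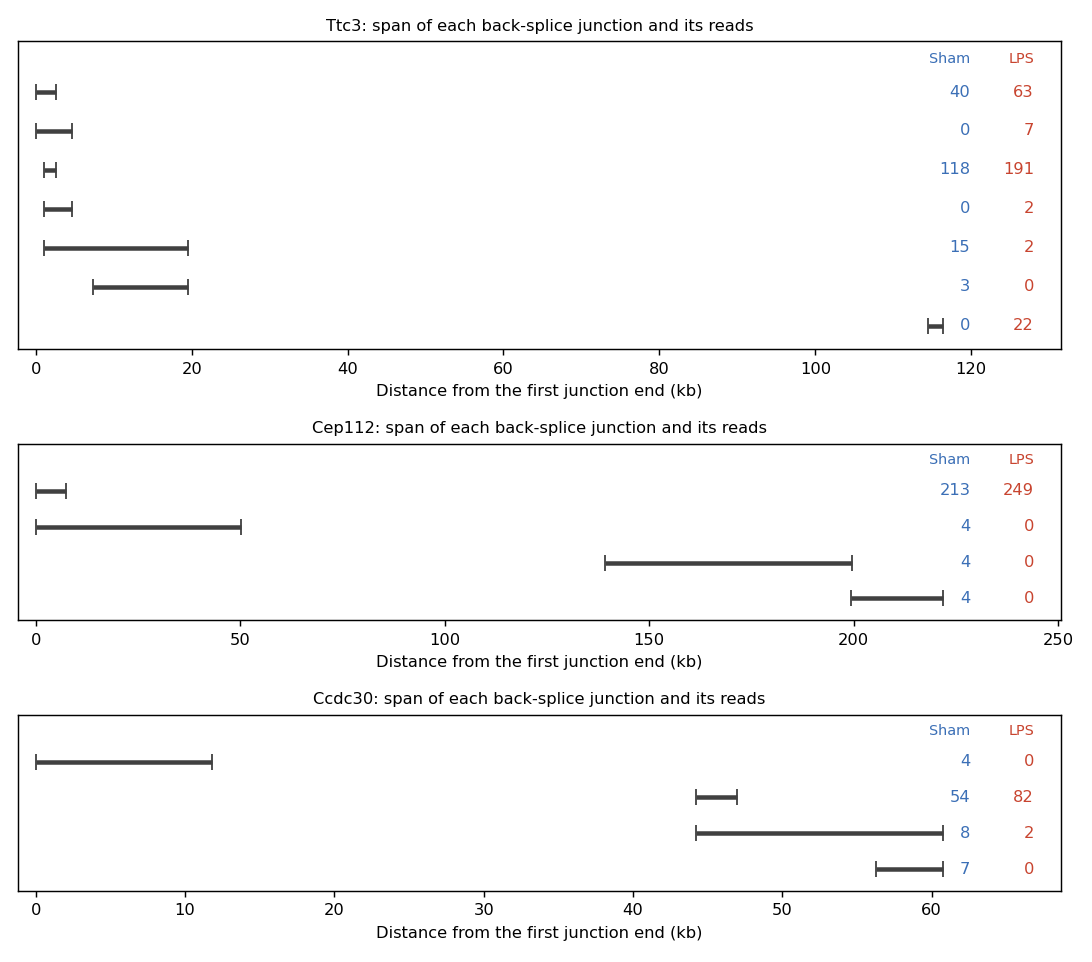
Span of each back-splice junction of Ttc3, Cep112 and Ccdc30, drawn as distance in kb from the first junction end of the gene, with the reads in the Sham and LPS libraries at the right (0 stands for the fill-in). The junctions of 18507, 50255 and 16558 nt that share a start with the most-read junction have 15 and 2, 4 and 0, and 8 and 2 reads, whereas 2 shorter Ttc3 junctions ending at 34616155 were listed in LPS only.

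Over the 23 hosts with at least 2 junctions, the most-read junctions had 632 Sham and 1032 LPS reads, a ratio of 1.18 (1.07 to 1.31), and the 40 others 143 and 164, a ratio of 0.832 (0.661 to 1.05). The most-read junctions were picked by these same reads, most of which come from the deeper LPS library, so the pick itself favours a higher ratio. This contrast was not computed over all hosts and is only a description. Of the 40, only 14 had more reads in a library than the fill-in can hide. In 10 of the 23 hosts at least 1 junction was 2-fold higher and another 2-fold lower. Over all 916 hosts with at least 2 junctions this held for 45.2%, a share close to that here (43.5%). Those 10 were Ttc3, Kif1b, Kif5b, Wdr7, Wdr78, Ccdc132, Spag9, Cep350, Bbs9 and Ift81. Both Wdr33 and both Ccdc101 junctions were higher, and both Nek4 and both Clip2 junctions lower.

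**Figure D4:**
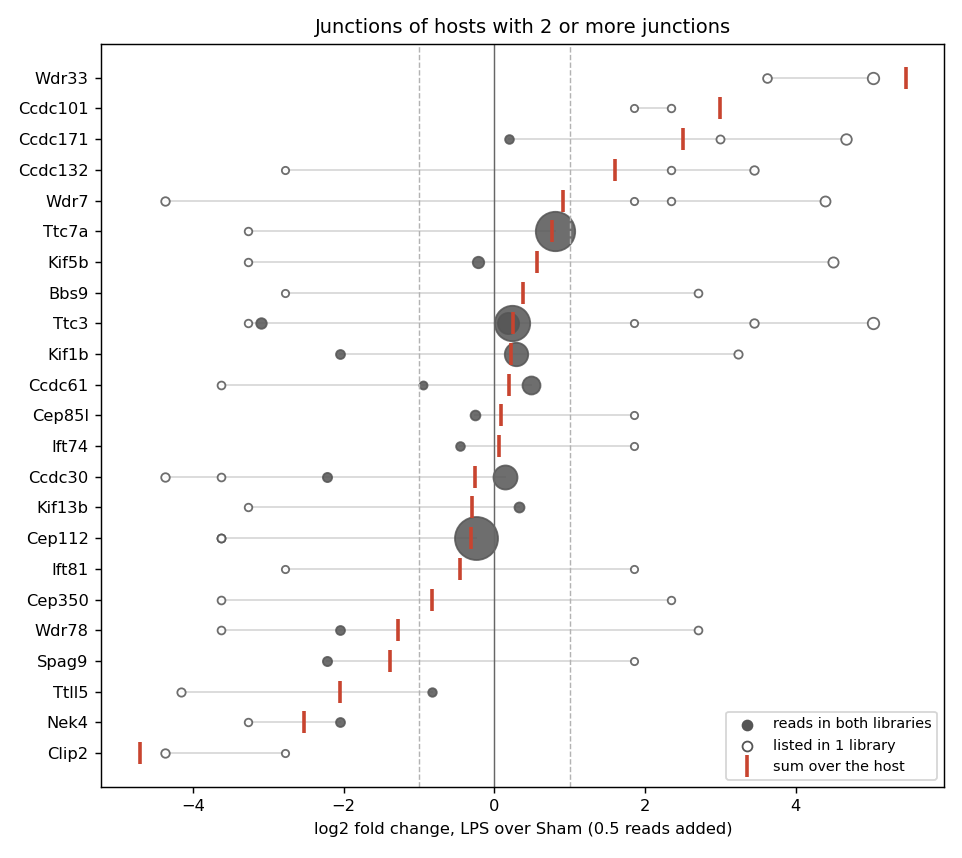
log2 fold change of each junction (points, sized by reads over both libraries) for the 23 hosts with at least 2 junctions, and of the host's sum (red bar), with 0.5 reads added. Large points of Ttc3, Ccdc30, Kif1b and Cep112 lie near 0, and open points, which are listed in 1 library, spread to both sides. The positions of open points depend on the 0.5 reads added.

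Over all members, 49 circRNAs were at least 2-fold higher in LPS (41.5%, against 35.7% of all circRNAs) and 46 at least 2-fold lower (39.0%, against 43.3%). With the fill-in taken as 1 read, 23 were higher (19.5%, against 18.7%) and 46 lower (39.0%, against 43.3%), so the balance between higher and lower depends on how the fill-in is read. Without the motif-named families, 19 of 56 were higher (33.9%) and 27 lower (48.2%). The median log2 value of the members was 0.19, and -0.46 over the whole table. Of the members, 36 were listed in both libraries (30.5%, against 37.1% of all), 34 in Sham only (28.8%, against 32.4%) and 48 in LPS only (40.7%, against 30.5%). Every circRNA listed in 1 library passes 2-fold by construction, since even 2 reads against the fill-in give 1.86 or -2.78. The 49 higher thus hold all 48 listed in LPS only, and the 46 lower all 34 listed in Sham only. Among those listed in both, the median log2 value was -0.36, and -0.46 over all such circRNAs. A value of -0.46 is what equal read numbers give.

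Most of these calls rest on few reads. Only 31 members had at least 10 reads over both libraries, and 68 had no more reads in either library than the fill-in can hide. Of the 31, 9 were higher (29.0%, against 29.1% of all such circRNAs) and 5 lower (16.1%, against 29.6%). The 5 lower ones were the long Ttc3 and Ccdc30 junctions, Bbs4, Spag9 and Ttc9. The 9 higher ones were Ccdc50 and 8 that were listed in LPS only, which were junctions of Ccdc104, Dync1h1, Ttc3, Wdr33, Ccdc171, Kif5b, Wdr7 and Kif26b. Those 8 reached 10 reads through the LPS library alone, which is also the deeper one, so the count of 9 is a description and says nothing about the members as a group.

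Summed per host gene, 30 hosts were higher (38.5%, against 31.2% of all hosts) and 25 lower (32.1%, against 38.2%). Of the 17 hosts with at least 20 reads, 5 were higher (29.4%, against 24.2%). These were Ccdc50, Ccdc171, Wdr33, Ccdc104 and Dync1h1. Wdr33, Ccdc104 and Dync1h1 reached 20 reads through the LPS library alone, and Ccdc171 with 27 of its 30, so this count too is only a description. In the other direction, 0 of the 17 were at least 2-fold lower, against 20.1% of all such hosts. Ttc28 came closest at -0.99, and it missed 2-fold only through the 0.5 reads added, since its ratio was 0.497. This count is likewise only a description.

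**Figure D5:**
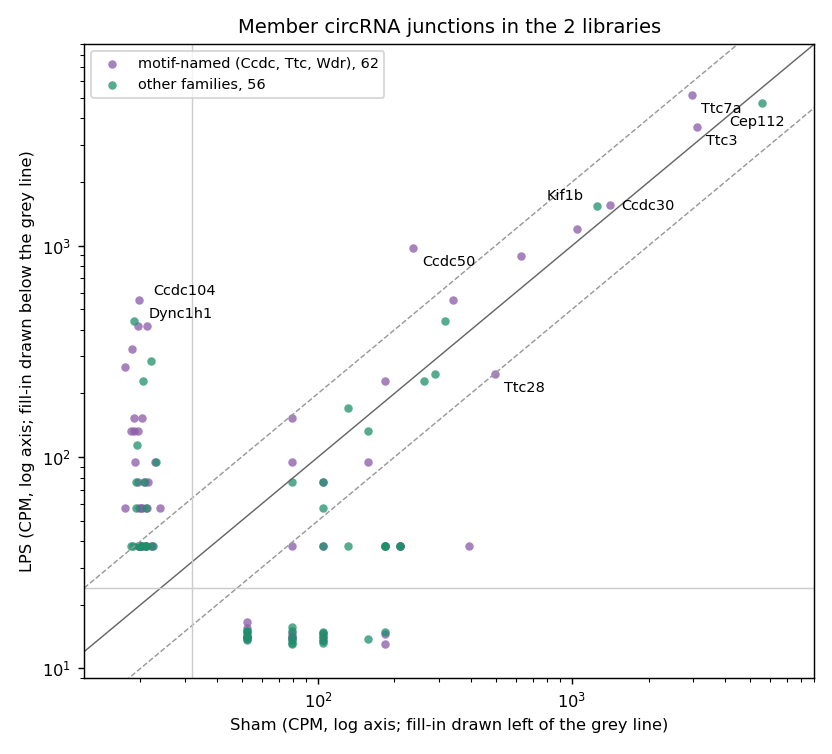
Value of each of the 118 junctions in the Sham (x) and LPS (y) library in CPM on log axes, with lines at equal values and at 2-fold; points left of or below the grey lines are at the fill-in and are spread slightly to be seen. The 5 most-read junctions lie between the 2-fold lines, and of the junctions at the Sham fill-in 8 reach at least 10 LPS reads.

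The median genomic distance between the junction ends of members, introns included, was 3590 nt, against 4393 nt for all circRNAs. At most 500 nt were spanned by 8 members (6.78%, against 12.5% of all), from 146 nt in Ccdc101 to 485 nt in Ift20. Another circRNA of the table shared a start or an end with 29 members (24.6%, against 37.4% of all), in 10 hosts. The members lay on 19 chromosomes.

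Genes of the same pathways outside the name rule held a similar share of both libraries. Of 142 genes listed for cilia, centrosomes and microtubules, 30 had circRNAs. Of these, 11 were at least 2-fold higher (31.2% of all hosts were), 9 lower (38.2% of all) and 10 neither. Together they held 0.798% of Sham reads (0.713 to 0.892) and 0.832% of LPS reads (0.758 to 0.914), a ratio of 1.04 (0.899 to 1.21). Tbcd, a tubulin folding factor, had the most reads, 139 in Sham and 199 in LPS. Mark3, a kinase of microtubule-associated proteins, had 35 and 78, a ratio of 1.62 (1.07 to 2.48). Macf1, which links microtubules to actin, had 13 and 37, a ratio of 2.07 (1.07 to 4.24). The severing enzyme Spast had 37 and 31, a ratio of 0.608 (0.365 to 1.01). Pafah1b1, a regulator of dynein, was at the Sham fill-in at 3 junctions and had 10 LPS reads.

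CircRNAs of markers of several lung cell types also differed between the libraries. Of 9 leukocyte and macrophage markers, 3 were listed, and their reads came to 2 in Sham and 32 in LPS. Csf3r, the G-CSF receptor of neutrophils, accounted for 25 of the LPS reads and was at the Sham fill-in, Mrc1 had 2 and 4 reads and Itgam 3 LPS reads, while Ptprc, Itgax, Cd68, Marco, S100a8 and S100a9 had no listed circRNA. Of the mesenchymal markers 3 of 6 were listed, with a summed ratio of 0.38 (0.32 to 0.45). Most of these reads were from Eln (331 and 206), Col3a1 had 70 and 2, and Pdgfra went the other way with 2 LPS reads alone. The endothelial sum (3 of 6 listed) was at a ratio of 1.13 (0.913 to 1.41), within counting error, with Flt1 at 67 and 165 reads, Vwf at 58 and 56 and Tek at 18 and 2. Alveolar type I markers had 53 and 112 reads, all from Rtkn2 (1 of 6), a ratio of 1.53 (1.10 to 2.17). Alveolar type II markers (2 of 6) had 5 and 3. The part of these shifts in the values of the members was not tested.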

How the data were processed

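CircRNA sequencing of rat lung tissue gave 1 Sham and 1 LPS library. The deposited table lists each back-splice junction with host names and 1 value per library, headed TPM. The values are junction reads that the authors scaled to a common total per library, read here as CPM because the columns sum to 1000001 and 1000002 and 100% of values above the fill-in are whole multiples (within 0.1 reads) of 1 step. Junction position ends are given as deposited, and the strand is not given there. The submitters' processing notes name CASAVA 1.8, BWA and the build rn6. The circRNA caller is not given in the sources used here. The labels describe removal of ribosomal RNA and digestion with RNase R, and the study's methods a SmartPCR cDNA kit.

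Libraries were assigned by column name. A member row was given the host name that met the rule, and 10 member rows also carried other names. Small RNA family names were dropped from the host lists of the other rows. Named hosts were the 3 with the most reads per role group, the 6 at each end of the fold order among hosts with at least 20 reads, and those with at least 4 junctions. Named junctions were the 5 with the most reads, the 4 largest folds in each direction among those listed in both libraries with at least 10 reads, and the 3 with the most reads among those listed in 1 library only, in each direction. Other hosts and junctions in the text were named after their values were seen. Members, lists and rules were chosen with earlier results of these data known. A host at the fill-in at all its junctions was given a one-sided 95% Poisson limit for 1 read per junction. On simulated libraries, reads were recovered for 4734 of 4734 circRNAs and 197 of 200 changed 4-fold passed 2-fold. Those 200 were drawn only from circRNAs with many reads. The simulation therefore does not cover most members, whose median was 4 reads, and gives no rate of false 2-fold calls. Alternatives were another pseudocount, fill-in, fold, read minimum, scale and set of hosts. Calculations used scipy 1.17.1 for intervals and pandas 2.3.3 with numpy 2.4.6 under Python 3.11.15, and figures matplotlib 3.10.9. No count test was run. The values of 1 named host are not reported here.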

Additional observations from a re-analysis of the deposited data

How the results depend on the processing

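No paired analysis was possible because there is a single library for Sham and for LPS, and no replicate could be left out. The 49 higher and 46 lower circRNAs became 9 and 5 with at least 10 reads and 19 and 27 without Ccdc, Ttc and Wdr hosts. The 30 higher and 25 lower host genes became 7 and 6 with at least 10 reads, and 11 and 16 of 39 without those families. With the fill-in as 1 read, 23 circRNAs (19.5%, against 18.7% of all) and 13 hosts were higher, and with a 4-fold threshold 30 and 17. Shares over the whole table were not computed for hosts at 10 reads, for hosts with this fill-in or for the 4-fold threshold. Those counts are therefore only descriptions. The read minimum and the family restriction leave fewer circRNAs by construction. The other alternatives kept these counts within 1.5 times.

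The members' share went from 2.45% (Sham) and 2.87% (LPS) to 1.99% and 2.53% with at least 10 reads, to 1.89% and 2.39% without the main Cep112 junction, to 1.12% and 0.979% without the motif-named families, and to 2.14% and 2.35% without Ttc7a, an alternative chosen after seeing the data. The LPS share was 2.71% over rows with 1 host name. On the median ratio scale the log2 ratio was 0.84 for kinesins, 0.083 for the centrosome group and 0.97 for the motif-named families, since this scale adds 0.46 to all. Without its main junction the centrosome group was at -1.52. Spag9 went from -1.38 to 1.86 without its most-read junction, where 2 LPS reads remain. Of the other values of named hosts and junctions, 143 stayed within their counting interval and 14 left it. Of these 14, 8 came from leaving out the most-read junction of the host, where Kif1b (-0.28), Ttc7a (-3.27), Ccdc61 (-2.05) and Wdr7 (-0.91) changed sign from values under 2-fold, and 6 from the median ratio scale, where Cep112 changed sign (0.15 for the host, 0.22 for its main junction). Depth limits single junctions: 73.7% of members had fewer than 10 reads over both libraries, against 66.6% of all circRNAs.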
